A study of Rattus norvegicus with 154 samples.

Results

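The genes of the mitochondrial respiratory chain were examined in the lungs of rats exposed to bis-(2-chloroethyl) sulfide (sulfur mustard), an alkylating agent. Members were taken by symbol, as every probe set whose gene symbol began with Nduf, Uqcr, Sdh followed by a to d, Cox followed by 4 to 8, or Atp5. Of 15923 probe sets on the array, 100 met this rule, of which 94 carried 1 gene symbol and 6 carried several, and the 94 stood for 88 genes. A filter on low values kept 11106 probe sets of the array, among them 89 of the 94, which stood for 86 genes. The 5 probe sets below it were a pair for Atp5if1 and 1 each for Sdhaf2, Sdhaf3 and Cox6b2. The 86 genes comprised 36 of complex I, 5 of its assembly factors, 4 of complex II, 3 of its assembly factors, 7 of complex III, 15 of complex IV (including the pseudogene Cox6c-ps1) and 16 of the ATP synthase.

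Lung RNA of 77 rats had been hybridised to 154 Affymetrix RAE230A arrays, 2 chips (A and B) for each animal number in the labels. The exposed groups received 1 mg, 3 mg or 6 mg of sulfur mustard in isopropyl alcohol (per animal or per body weight is not given in the sources used here), and the controls received isopropyl alcohol alone or saline, each sampled at 30 min, 1 h, 3 h, 6 h or 24 h. Of the 25 groups, 23 had 3 animals, and 6 mg at 30 min and at 1 h had 4 animals. Strain, sex, age, route of exposure and whether animals were handled separately are not given in the sources used here, so that p-values measure the spread between these animals. Every array had a 2% trimmed mean of 150 and a median between 67.7 and 100.1. The 7 lung epithelial marker genes found on the array summed to intensities between 17084 and 50533 in all animals.

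The respiratory chain of the inner mitochondrial membrane passes electrons from NADH (complex I) and succinate (complex II) through complexes III and IV to oxygen, and the proton gradient this builds drives the ATP synthase. Most subunits are encoded in the nucleus and their genes tend to be expressed together, partly through the transcription factors NRF1, GABP (of the ETS family) and YY1. Several complex IV subunits exist as paralogues, with one form in most tissues and another in heart and skeletal muscle or, for Cox4i2, in lung.

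Promoters are shown for the 4 genes that differed from vehicle at 6 h, since members of this family share promoter motifs. RefSeq sequences of assembly GRCr8, from 250 bases before to 50 after the start of the gene, were found for 80 of the 88 genes. A search on both strands for GCGCANGCG (NRF1) matched 21 of 80 member promoters, 26.2%, against 11.9% of the 8610 promoters of genes on the array and 6.26% of all 27457 promoters in the table. For AANATGGCG (YY1) the counts were 19 of 80, 23.8%, against 5.82% of array genes and 3.33% of all promoters. For CCGGAAGT or CCGGAAGC (ETS and GABP) they were 14 of 80, 17.5%, against 11.6% of array genes and 6.61% of all promoters. A match of letters is a description and not a binding site, and some of the matches of different motifs may overlap. Capitals below mark matches, which are NRF1 in Ndufaf4 (chr5:43401545-43401844, plus strand, 2 overlapping matches), Ndufa5 (chr4:53971186-53971485, minus strand) and Cox7a2l (chr6:16936324-16936623, plus strand), and YY1 in Ndufs4 (chr2:47794865-47795164, minus strand).
Ndufaf4: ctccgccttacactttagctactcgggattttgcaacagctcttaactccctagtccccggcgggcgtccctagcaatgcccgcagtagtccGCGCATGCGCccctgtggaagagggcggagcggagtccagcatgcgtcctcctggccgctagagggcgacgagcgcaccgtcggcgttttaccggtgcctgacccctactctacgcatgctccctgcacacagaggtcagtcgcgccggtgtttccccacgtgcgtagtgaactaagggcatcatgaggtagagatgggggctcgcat
Ndufa5: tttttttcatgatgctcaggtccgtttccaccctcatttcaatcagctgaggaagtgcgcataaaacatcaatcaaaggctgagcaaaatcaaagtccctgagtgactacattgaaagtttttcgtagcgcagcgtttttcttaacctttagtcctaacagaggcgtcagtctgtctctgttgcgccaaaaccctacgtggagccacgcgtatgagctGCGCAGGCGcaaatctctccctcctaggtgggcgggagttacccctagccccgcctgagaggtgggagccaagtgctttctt
Cox7a2l: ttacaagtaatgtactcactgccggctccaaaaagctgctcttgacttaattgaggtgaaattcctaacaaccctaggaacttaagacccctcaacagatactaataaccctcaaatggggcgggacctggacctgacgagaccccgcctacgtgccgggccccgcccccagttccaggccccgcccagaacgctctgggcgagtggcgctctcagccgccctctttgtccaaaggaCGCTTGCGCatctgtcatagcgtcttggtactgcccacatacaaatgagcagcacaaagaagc
Ndufs4: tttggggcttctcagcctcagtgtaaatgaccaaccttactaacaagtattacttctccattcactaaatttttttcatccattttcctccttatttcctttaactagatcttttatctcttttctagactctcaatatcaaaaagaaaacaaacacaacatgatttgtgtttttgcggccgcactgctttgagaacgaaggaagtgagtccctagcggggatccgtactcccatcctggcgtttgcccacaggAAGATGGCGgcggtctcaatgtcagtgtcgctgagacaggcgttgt
At least 1 of these motifs was found in 45 of 80 member promoters, 56.2%, against 25.3% of those of array genes. The window of Ndufa4l2 (chr7:65241919-65242218, plus strand), which did not pass against vehicle at 24 h, held none of these letters. Those of Cox4i1 and Ndufa4 held none either, and no promoter was found for Cox4i2.

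In animals given 6 mg, few respiratory chain genes passed the test against isopropyl alcohol. No member gene passed the test at 30 min, 1 h or 3 h, 4 of 86 passed at 6 h (3 higher, 1 lower) and 1 of 86 passed at 24 h (lower; limma, Benjamini-Hochberg adjusted p under 0.05 over all 11106 probe sets). Over all probe sets tested, 0.0% and 0.189% passed at the first 2 times. The share was 12.9% at 3 h (3.84% higher, 9.1% lower). It reached 18.2% at 6 h (7.17% higher, 11.1% lower), and 24 h gave 6.73% (2.71% higher, 4.02% lower). The member counts depended on single animals and on the fit. At 3 h, 8 members passed without 6 mg replicate 2, 3 without vehicle replicate 3 and 2 without 6 mg replicate 1. At 6 h, 0 to 2 passed without any 1 of the 6 animals, 1 with scan days as a block and 15 with arrays weighted by quality. At 24 h, 0 or 1 passed without 1 animal, and 3 with array weights. The shares of all probe sets that passed in these alternative fits are not given here, so these counts show only how the calls moved. At an unadjusted p under 0.05 there were 5 member genes at 30 min, against 5.25% of all probe sets, 16 at 1 h, against 13.4%, and 15 at 3 h, against 25.6%. The 6 probe sets with several genes gave no call at any time at 6 mg, with log2 differences between -0.32 and 0.65.

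The members nevertheless lay slightly above the rest of the array. From 30 min to 24 h the median log2 difference at 6 mg was 0.14, 0.15, 0.21, 0.07 and 0.16, where the median of all probe sets tested was -0.02, -0.01, -0.05, -0.035 and -0.01. Differences were above 0 in 70, 67, 73, 56 and 69 of the 86 genes at these times, and in 46.5%, 48.5%, 43.6%, 45.9% and 48.2% of all probe sets. The genes were measured in the same animals, so these counts are descriptions. Without 1 animal the medians ranged from 0.075 to 0.195 at 30 min, 0.08 to 0.212 at 1 h and 0.113 to 0.288 at 3 h. At the later times the ranges were 0.03 to 0.107 (6 h) and 0.087 to 0.179 (24 h), all above 0. With each array centred on its median, the median of all probe sets at 3 h moved by 0.11 to 0.06, and 79 of the 86 genes were above 0. Such shifts were not confined to 6 mg. Between isopropyl alcohol and saline, 23, 21, 40, 69 and 21 of the 86 genes were above 0 from 30 min to 24 h. Against isopropyl alcohol the counts were 45, 76, 49, 65 and 62 at 1 mg, and 48, 68, 62, 37 and 52 at 3 mg.

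The 95% intervals bounded the changes. At 6 mg the interval of the difference lay within 1.5-fold of vehicle in either direction for 66, 58, 50, 56 and 64 genes from 30 min to 24 h. It lay within 2-fold for 86, 85, 84, 82 and 84 of the 86 genes. Within a group, the member genes had a median SD of 0.20 on the log2 scale, and 78 of 86 had an SD under 0.3. Cox8b and Atp5mk (both 0.39), Atp5f1e (0.37) and Uqcr10 (0.35) were the most variable between animals of a group.

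**Figure D1:**
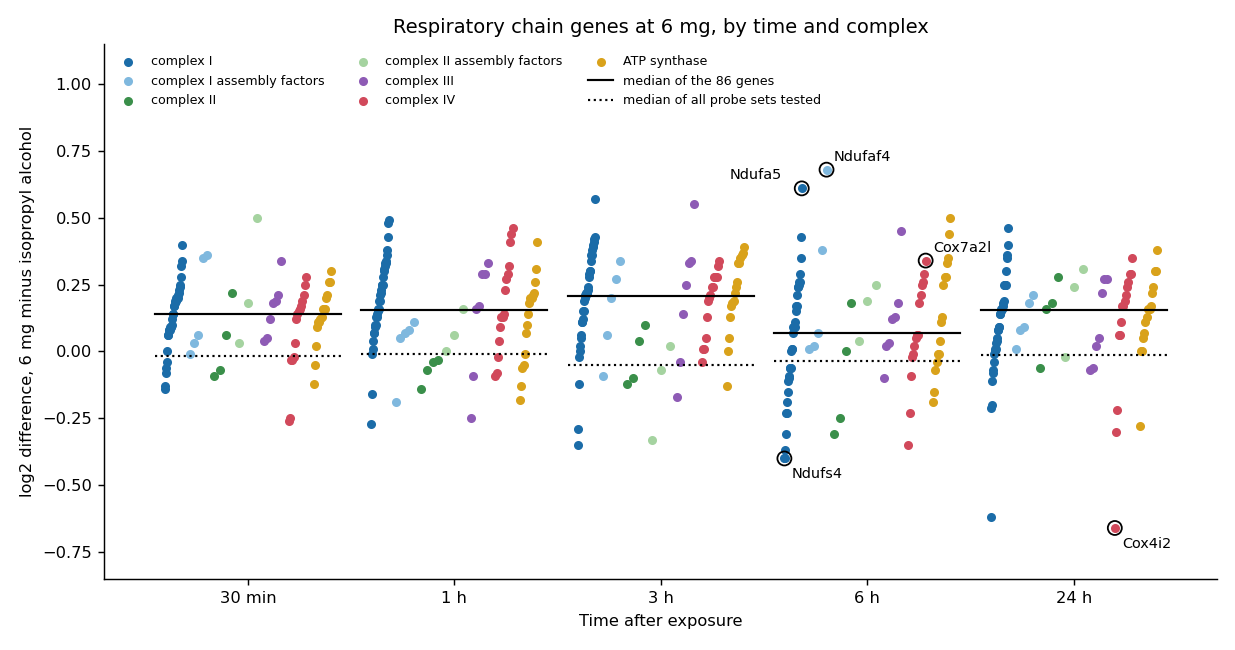
Log2 difference between 6 mg and isopropyl alcohol (y axis) of each of the 86 member genes, by time after exposure (x axis) and complex (colour). Solid lines are the median of the members and dotted lines the median of all probe sets tested; ringed genes had an adjusted p under 0.05, 4 at 6 h and 1 at 24 h.

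A score of each animal showed how far the members moved together. It was the mean, over the 89 tested member probe sets, of the log2 level centred on all animals. A gene with a second tested probe set counted with both. At 3 h it was 0.18, 0.07 and 0.35 in animals given 6 mg, against 0.07, -0.12 and 0.15 in animals given isopropyl alcohol, so the groups overlapped. At 24 h the 3 animals given 6 mg lay between 0.02 and 0.03, and those given isopropyl alcohol between -0.15 and 0.00. Animals given saline lay between -0.12 and 0.13 at 24 h, a range that spans those given 6 mg. The 4 animals given 6 mg for 30 min lay between -0.05 and 0.22, and the vehicle animals between -0.14 and 0.02. At 1 h the score ran from -0.02 to 0.13 at 6 mg and from -0.19 to 0.03 with vehicle, and at 6 h from 0.01 to 0.11 at 6 mg and from -0.12 to 0.02 with vehicle.

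The score also differed between the days on which the chips of an animal had been scanned. The arrays came from 17 scan days, which paired chips A and B in 12 combinations. The 12 animals scanned on days 5 and 6 had a mean score of 0.14, the 9 animals scanned on days 11 and 12 had -0.14 and the 3 animals scanned on days 13 and 14 had -0.19. The lowest isopropyl alcohol animal at 24 h, with -0.15, had been scanned on days 13 and 14. Groups were spread unevenly over these days. The animals of days 13 and 14 were all controls, and days 11 and 12 held no animal given 6 mg. Days 5 and 6 held animals given 6 mg for 3 h. Scan days and group therefore cannot be told apart in these means. Within scan days, the median log2 difference of the member genes between 6 mg and isopropyl alcohol was 0.25 and -0.045 at 30 min (2 against 2 and 1 against 1 animals), 0.15 and 0.04 at 3 h (2 against 1 and 1 against 1) and 0.15 at 24 h (1 against 1). No combination of days held both groups at 1 h or 6 h. All animals given 6 mg for 6 h were scanned on days 9 and 10, and no vehicle animal of 6 h was. The comparison of 6 mg with vehicle at 6 h thus does not separate dose from scan days.

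The 3' to 5' signal of the GAPDH control probes, a sign of RNA integrity, had a higher mean at 6 mg than with vehicle at each time. From 30 min to 24 h its log2 ratio averaged 0.37 ± 0.23, 1.34 ± 0.84, 1.04 ± 0.17, 0.94 ± 0.24 and 1.22 ± 0.36 at 6 mg, and 0.18 ± 0.11, 0.64 ± 0.43, 0.71 ± 0.22, 0.61 ± 0.52 and 0.75 ± 0.41 with isopropyl alcohol (SD, n = 3, with n = 4 at 6 mg at 30 min and 1 h). Its mean was 1.01 on scan days 5 and 6, 0.39 on days 11 and 12 and 0.17 on days 13 and 14. Over the other combinations the ratio and the score did not keep this order. The highest ratio, 1.33 on days 4 and 7, went with a mean score of 0.04. A ratio of 0.22 went with a mean score of -0.02 on days 15 and 16 and of -0.04 on days 17 and 16. With this ratio as a covariate, the member median at 24 h was 0.091, against 0.156 without it. In that fit the 6 mg calls of Ndufa5, Cox7a2l and Cox4i2 were lost, and those of Ndufaf4 and Ndufs4 were kept. With scan days as a block, none of the 5 genes called at 6 mg passed, and Ndufs1 alone passed at 6 h (-0.53, adjusted p = 0.0206).

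**Figure D2:**
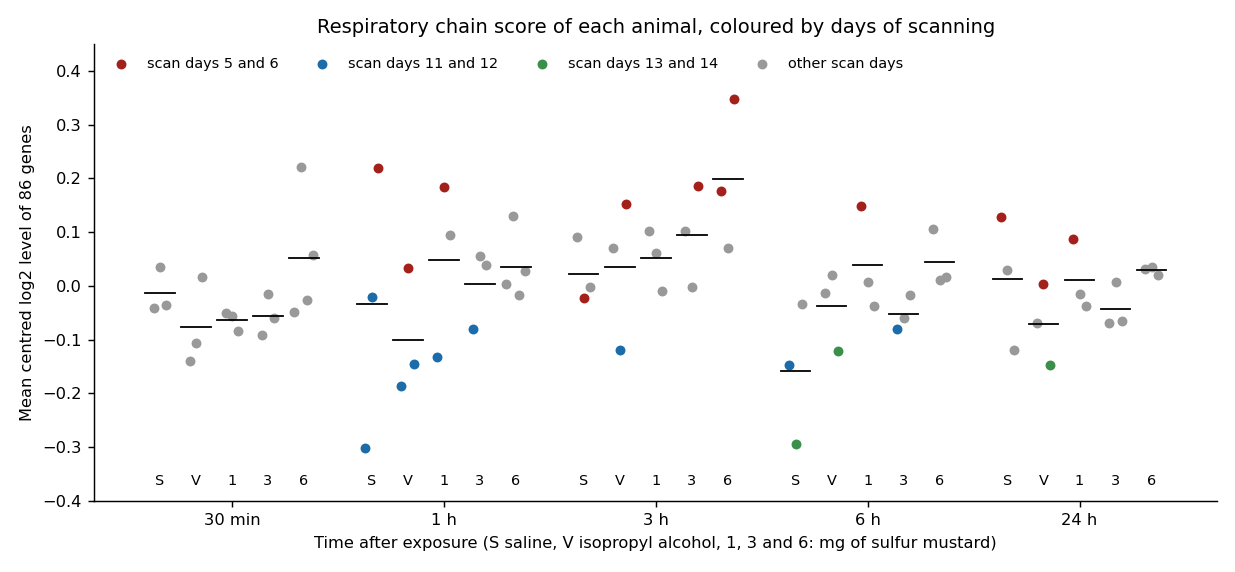
Respiratory chain score of each of the 77 animals (y axis, mean centred log2 level of the 89 tested probe sets of the 86 genes) by time and group (x axis: S saline, V isopropyl alcohol, then 1, 3 and 6 mg), with group means as lines. Red points, scanned on days 5 and 6, average 0.14; blue points, days 11 and 12, average -0.14; green points, days 13 and 14, average -0.19.

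Complex I, which takes electrons from NADH, held 1 gene that rose and 1 that fell at 6 mg, both at 6 h. At that time all animals given 6 mg shared scan days that no vehicle animal had. The same holds for the 6 h calls of Ndufaf4 and Cox7a2l below. The medians of its 36 genes at 6 mg were 0.15, 0.20, 0.22, 0.08 and 0.12 from 30 min to 24 h. Ndufa5, an accessory subunit of the matrix arm, had intensities of 131, 128 and 121 at 6 mg for 6 h, against 87.9, 95.2 and 63.4 with isopropyl alcohol. The groups did not overlap, and the difference was 0.61 ± 0.22 on the log2 scale (SE, adjusted p = 0.0449). Ndufs4, an accessory subunit of the matrix arm whose loss causes Leigh syndrome in humans, had 87.2, 61.8 and 71.2 at 6 mg for 6 h, against 91.8, 107 and 96 with isopropyl alcohol. All 3 exposed animals were below all vehicle animals, and Ndufs4 fell by 0.40 ± 0.14 (adjusted p = 0.0408). Ndufs4 also fell with dose at 6 h, with a slope of -0.08 ± 0.02 log2 units per mg (adjusted p = 0.00695). Ndufa3, an accessory subunit, fell with dose at 6 h as well, by 0.07 ± 0.03 per mg (adjusted p = 0.0434). A test of the linear trend over isopropyl alcohol, 1, 3 and 6 mg passed for 20.4% of all probe sets at 6 h. Both calls at 6 mg were lost in 5 of 6 fits without 1 animal, where the adjusted p was 0.047 to 0.235 for Ndufa5 (kept without vehicle replicate 2) and 0.0159 to 0.246 for Ndufs4 (kept without 6 mg replicate 1).

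Other complex I subunits came near the threshold at single times. At 3 h, Ndufb9, a membrane arm subunit, had 965, 836 and 1253 at 6 mg, against 769, 650 and 857 with isopropyl alcohol, an overlapping pair of groups (0.40 ± 0.15, adjusted p = 0.0701). Ndufb10, of the same arm, had 462, 397 and 552 at 6 mg for 3 h, against 360, 274 and 420 with isopropyl alcohol (0.42 ± 0.17, adjusted p = 0.0902). Ndufs6, of the matrix arm, had 563, 508 and 830 at 6 mg for 3 h, against 386, 352 and 535 with isopropyl alcohol (0.57 ± 0.23, adjusted p = 0.0962). In these 3 genes replicate 3 was the highest animal of both groups and replicate 2 the lowest.

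At 1 h, Ndufc1, a small membrane arm subunit, had 221, 288, 192 and 253 at 6 mg, against 157, 168 and 180 with isopropyl alcohol. Every exposed animal was above every vehicle animal, and the difference of 0.48 ± 0.14 had an adjusted p of 0.156. Ndufb11 at 30 min had 656, 1034, 724 and 848 at 6 mg, against 510, 548 and 795 with isopropyl alcohol (0.40 ± 0.18, adjusted p = 0.906). Ndufs1, the largest iron-sulfur subunit, had differences of -0.35 ± 0.15 at 3 h and -0.37 ± 0.15 at 6 h, with adjusted p of 0.124 and 0.086, and is named here because it was the lowest member at 3 h. A second tested probe set of Ndufv3 had a difference of 0.58 at 6 h (adjusted p = 0.0346), while the brighter one that stood for the gene had -0.06 ± 0.18.

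Among factors that assemble complex I, Ndufaf4 rose at 6 mg at 6 h. NDUFAF4 is known in humans to act with NDUFAF3 early in building the complex. Its intensity was 160, 153 and 175 at 6 mg, against 103, 81.1 and 113 with isopropyl alcohol. The lowest exposed animal stood well above the highest vehicle animal, and the difference was 0.68 ± 0.21, or 1.61-fold (adjusted p = 0.018). At 3 mg the 6 h values were 125, 85.3 and 102, at 1 mg 95.8, 119 and 114 and in saline 123, 99.7 and 132, so 1 mg, 3 mg and both controls overlapped. The dose trend of Ndufaf4 at 6 h was 0.11 ± 0.03 per mg (adjusted p = 0.0153). Its difference was 0.36 ± 0.20 at 30 min, 0.11 ± 0.20 at 1 h, 0.20 ± 0.21 at 3 h and 0.18 ± 0.21 at 24 h, none past the threshold. The call at 6 h was lost without replicate 3 at 6 mg, without replicate 2 of the vehicle, on chip B, and in the fit that blocked on scan days (adjusted p up to 0.237).

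The remaining factors showed 1 more call. Ndufaf5, which modifies a complex I subunit in humans, rose with dose at 6 h by 0.06 ± 0.02 per mg (adjusted p = 0.0291), and its difference at 6 mg was 0.38 ± 0.14 (adjusted p = 0.051). Ndufaf8, a partner of NDUFAF5 in humans, had 169, 118, 175 and 124 at 6 mg for 30 min, against 130, 90.3 and 120 with isopropyl alcohol, with overlap (0.35 ± 0.17, adjusted p = 0.906). Ndufaf3 and Ndufaf7 had differences between -0.09 and 0.21 at 6 mg, and their adjusted p-values were 0.432 or above.

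**Figure D3:**
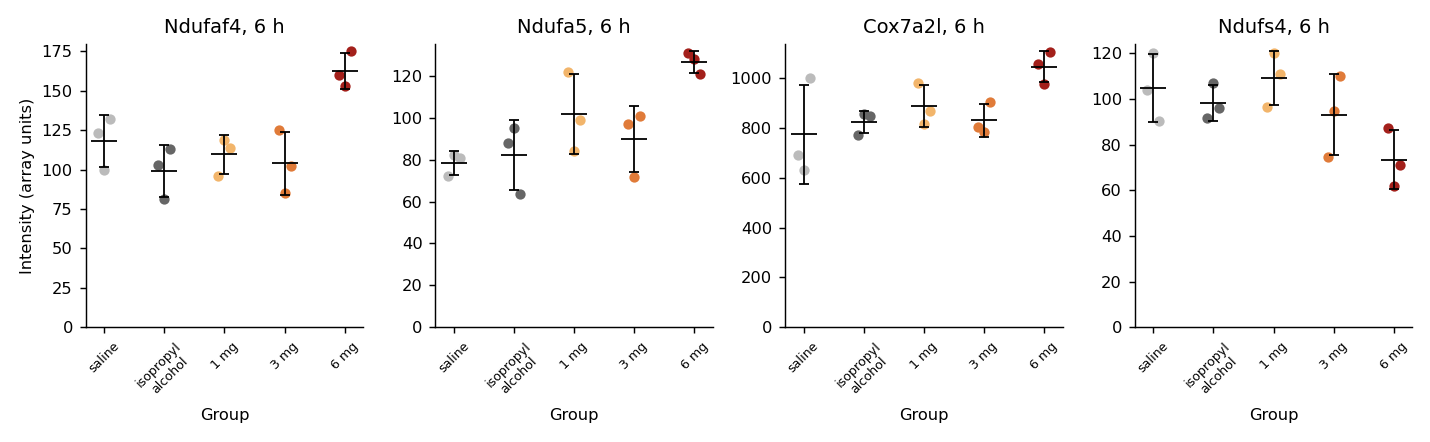
Intensity (y axis, array units, from 0) at 6 h of Ndufaf4, Ndufa5, Cox7a2l and Ndufs4 by group (x axis), with each animal as a point and the mean ± SD of 3 animals. At 6 mg Ndufaf4 lies between 153 and 175 and Ndufs4 between 61.8 and 87.2; with isopropyl alcohol they lie between 81.1 and 113 and between 91.8 and 107.

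Complex II, succinate dehydrogenase, showed no call in any comparison of a dose with vehicle. Sdha, the flavoprotein subunit, had 610, 667 and 748 at 6 mg for 24 h, against 609, 645 and 525 with isopropyl alcohol (0.18 ± 0.14). Sdhb, the iron-sulfur subunit, had 511, 515 and 551 at 6 mg for 24 h, against 397, 556 and 371 with isopropyl alcohol (0.28 ± 0.13, adjusted p = 0.254). Sdhc and Sdhd, the membrane anchors, had at 6 h differences of -0.25 ± 0.17 and -0.31 ± 0.17, with adjusted p of 0.314 and 0.215. A second probe set of Sdhd had -0.23 at 6 h. The median of the 4 genes at 6 mg was -0.01, -0.06, -0.03, -0.13 and 0.17 from 30 min to 24 h.

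Its assembly factors varied by animal and time. Sdhaf1, which in humans serves the iron-sulfur subunit, had 282, 261 and 285 at 6 mg for 24 h, against 229, 231 and 204 with isopropyl alcohol. The groups did not overlap, the difference was 0.31 ± 0.11 with an adjusted p of 0.0788, and Sdhaf1 rose with dose at 24 h by 0.06 ± 0.02 per mg (adjusted p = 0.0179). The trend passed for 8.11% of all probe sets at 24 h. Sdhaf4 had 101, 176, 104 and 108 at 6 mg for 30 min, against 91, 83.2 and 74.2 with isopropyl alcohol. Each exposed animal was higher than each vehicle animal, replicate 2 stood apart, and the difference of 0.50 ± 0.16 had an adjusted p of 0.875. Without that animal the difference was 0.32.

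The 7 genes of complex III, which passes electrons to cytochrome c, gave no call. Their medians at 6 mg were 0.18, 0.17, 0.25, 0.12 and 0.05 from 30 min to 24 h. Uqcr10, a small subunit, had the largest difference, 0.55 ± 0.28 at 3 h (adjusted p = 0.204), and Uqcrc2, a core subunit, had -0.25 ± 0.11 at 1 h (adjusted p = 0.336).

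Complex IV, cytochrome c oxidase, held 1 gene that rose at 6 h and 1 that fell at 24 h. Cox7a2l, known in mice for its part in joining complexes III and IV into supercomplexes, had 1059, 979 and 1105 at 6 mg for 6 h, against 774, 856 and 847 with isopropyl alcohol. The groups did not overlap, and Cox7a2l rose by 0.34 ± 0.12 (adjusted p = 0.0455). At 24 h it had 785, 814 and 719 at 6 mg, against 796, 961 and 959 with isopropyl alcohol, with overlap. Leaving out any 1 animal of either group lifted the adjusted p at 6 h to between 0.0596 and 0.158.

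Cox4i2, the form of subunit 4 with a known role in oxygen sensing in the mouse lung, had 134, 116 and 192 at 6 mg for 24 h, against 264, 214 and 221 with isopropyl alcohol. All exposed animals were lower than all vehicle animals, and Cox4i2 fell by 0.66 ± 0.21 (0.632 of the vehicle level, adjusted p = 0.0384). At 24 h it had 190, 225 and 235 at 3 mg, 239, 184 and 173 at 1 mg and 228, 225 and 158 in saline, so these groups overlapped each other. Its dose trend at 24 h was -0.10 ± 0.03 per mg (adjusted p = 0.0476). At 6 h Cox4i2 had 207, 162 and 169 at 6 mg, against 252, 222 and 215 with isopropyl alcohol, which do not overlap, but the difference of -0.35 ± 0.21 did not pass (adjusted p = 0.255). The differences at 30 min, 1 h and 3 h were 0.03 ± 0.19, 0.32 ± 0.19 and 0.21 ± 0.21. The call at 24 h was lost in 5 of 6 fits that left out 1 animal of these groups and kept without 6 mg replicate 3, with adjusted p from 0.013 to 0.246, and within the scan days that held both groups the difference was -0.95 (1 against 1).

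Its paralogue Cox4i1, the form found in most tissues, had 1736, 1468 and 1458 at 6 mg for 24 h, against 1344, 1566 and 1405 with isopropyl alcohol (0.11 ± 0.12). A like pair is Ndufa4 and Ndufa4l2; NDUFA4 was named for complex I, where both are counted above by symbol, and is now placed in human complex IV, and NDUFA4L2 is known in humans as a gene raised by low oxygen. Ndufa4l2 had 66.5, 65.2 and 72.2 at 6 mg for 24 h, against 124, 119 and 88.2 with isopropyl alcohol. These 3 values were its lowest in the 77 animals, but the difference of -0.62 ± 0.23 did not pass (adjusted p = 0.096). Against 3 mg, with 127, 158 and 103, Ndufa4l2 fell by 0.85 ± 0.23 (adjusted p = 0.0476), and its trend at 24 h was -0.11 ± 0.04 per mg (adjusted p = 0.0387). The call against 3 mg was lost without any 1 animal of either group (adjusted p 0.054 to 0.328). Ndufa4 had 889, 727 and 805 at 6 mg for 24 h, against 753, 659 and 621 with isopropyl alcohol (0.25 ± 0.14, adjusted p = 0.367).

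Cox4i2 and Ndufa4l2 are both known in mice from pericytes and smooth muscle, and a list of 14 genes of these cells was added after the values were seen. At 6 mg at 24 h, 7 of the 14 fell and none rose, with a median of -0.54, while 4.02% of all probe sets fell. Myh11 (smooth muscle myosin) fell by 1.02 ± 0.18, Acta2 (smooth muscle actin) by 1.00 ± 0.25 and Rgs5 (a pericyte gene) by 0.90 ± 0.16. Actg2, Cnn1, Tagln and Pdgfrb also fell, Pdgfrb near the threshold (limma, adjusted p = 0.0498). The rest of the list did not pass: Kcnj8 (0.05), Des (-0.14), Cspg4 (-0.21), Lmod1 (-0.3), Abcc9 (-0.38), Higd1b (-0.43) and Notch3 (-0.48). The summed level of the list was between 1939 and 2438 at 6 mg for 24 h, and between 3079 and 3704 with isopropyl alcohol. At 6 h the summed level was between 2913 and 3375 at 6 mg and between 3014 and 4014 with isopropyl alcohol, and no gene of the list passed. Its part in the lower Cox4i2 and Ndufa4l2 was not tested, and in lung RNA fewer cells of a type and less RNA per cell cannot be told apart.

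**Figure D4:**
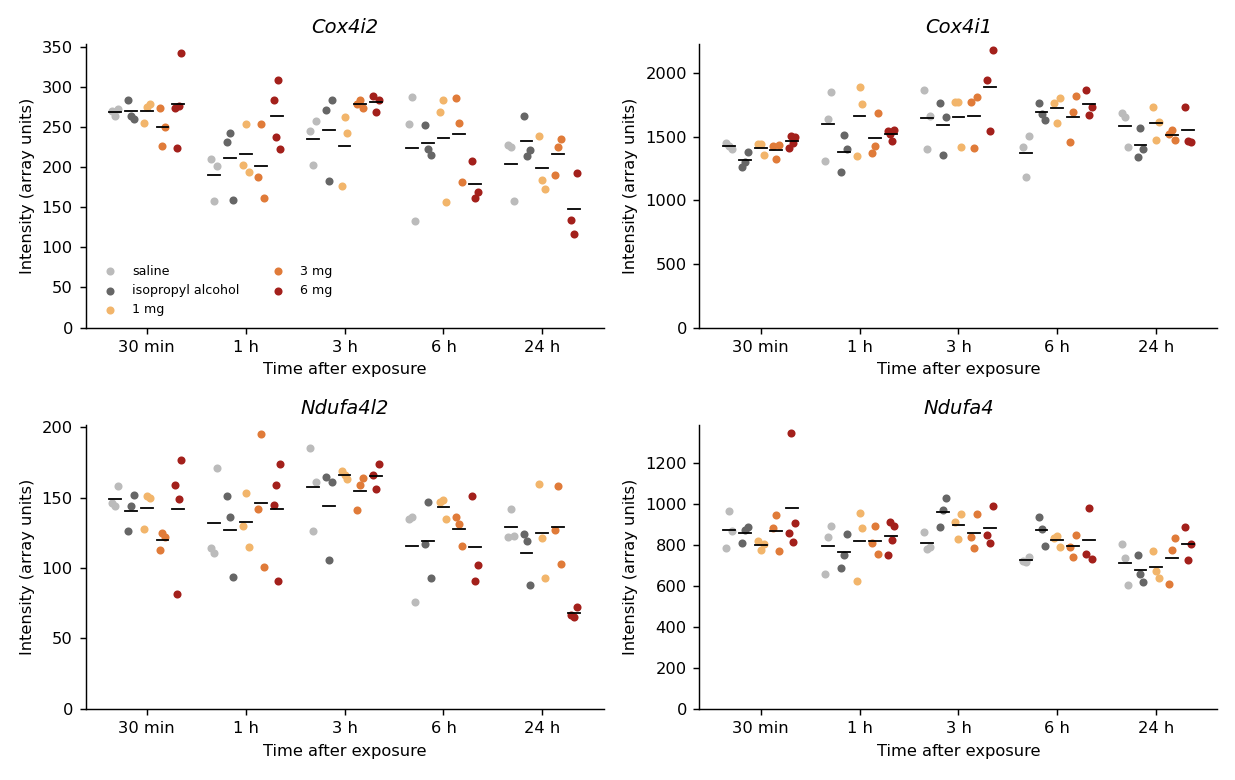
Intensity (y axes, array units, from 0) of Cox4i2, Cox4i1, Ndufa4l2 and Ndufa4 in each animal by time (x axis) and group (colour, saline to 6 mg from left to right within a time), with group means as lines. At 24 h the 6 mg animals of Ndufa4l2 lie between 65.2 and 72.2, below all other animals.

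The other complex IV genes stayed under the threshold at 6 mg. Cox6b1, a subunit at the outer face, had at 1 h 773, 1100, 778 and 956 at 6 mg, against 628, 707 and 610 with isopropyl alcohol. These groups did not overlap, and the difference was 0.46 ± 0.14 (adjusted p = 0.156). Cox8a, the form of subunit 8 in most tissues, had at 1 h 1509, 2612, 1489 and 1637 at 6 mg, against 1238, 1527 and 1223 with isopropyl alcohol (0.41 ± 0.14, adjusted p = 0.207). Cox7b had at 30 min 807, 1203, 812 and 806 at 6 mg, against 674, 793 and 744 with isopropyl alcohol (0.28 ± 0.11, adjusted p = 0.879). In Cox8a and Cox7b, replicate 2 of its time was far above the other 3 exposed animals, and without it the difference of Cox7b was 0.14. Cox6a1 had differences between 0.17 and 0.29 at the 5 times, and adjusted p was 0.339 or above. Cox6b2, a testis form, lay under the filter, with 11.9, 19.8 and 22.7 at 6 mg for 24 h against 33.4, 14.8 and 15.4 with isopropyl alcohol. No probe set with 1 gene symbol for Cox7a2 or for Cox8c was among the members.

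Subunit forms of heart and skeletal muscle were measured in lung too. Cox6a2 ranged from 43.2 to 144 over all animals (median 79.6), Cox8b from 48.5 to 218 (median 127) and Cox7a1 from 130 to 245 (median 174). The walls of rat pulmonary veins contain heart muscle, and 17 heart muscle genes were on the array, of which Myl7 (atrial myosin light chain) ranged from 247 to 816, Myh6 (heart myosin) from 146 to 572 and Ryr2 from 1.9 to 14.4. Across 77 animals, Cox6a2 followed the mean log2 level of all 17 heart genes, tested or not, with a Pearson r of 0.76 and a Spearman rho of 0.77, and Cox8b with 0.51 and 0.57 (each p = 1e-05, the smallest that 100000 permutations can give, two-sided, and 3e-05 after adjustment over 6 genes). Without the 2 animals farthest from the median of the heart level r was 0.71 and 0.51, within groups it was 0.80 and 0.64, and within scan days 0.74 and 0.42. For Cox7a1 r was 0.13 (rho 0.15, permutation p = 0.248 and 0.193, adjusted 0.298 and 0.193). For the forms of most tissues r was 0.10 for Cox6a1 (rho 0.15, adjusted permutation p = 0.382 and 0.193), 0.20 for Cox8a (rho 0.24, adjusted permutation p = 0.131 and 0.0568) and 0.20 for Cox4i1 (rho 0.25, adjusted permutation p = 0.131 and 0.0561). At 6 mg Cox6a2 differed from vehicle by -0.25 to 0.29 at the 5 times, Cox8b by -0.30 to 0.44 and Cox7a1 by 0.04 to 0.19, with no call. Of 16 tested heart genes, 1 rose at 24 h (Pln, 0.81 ± 0.22), where 2.71% of all probe sets rose, and none changed at another time.

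**Figure D5:**
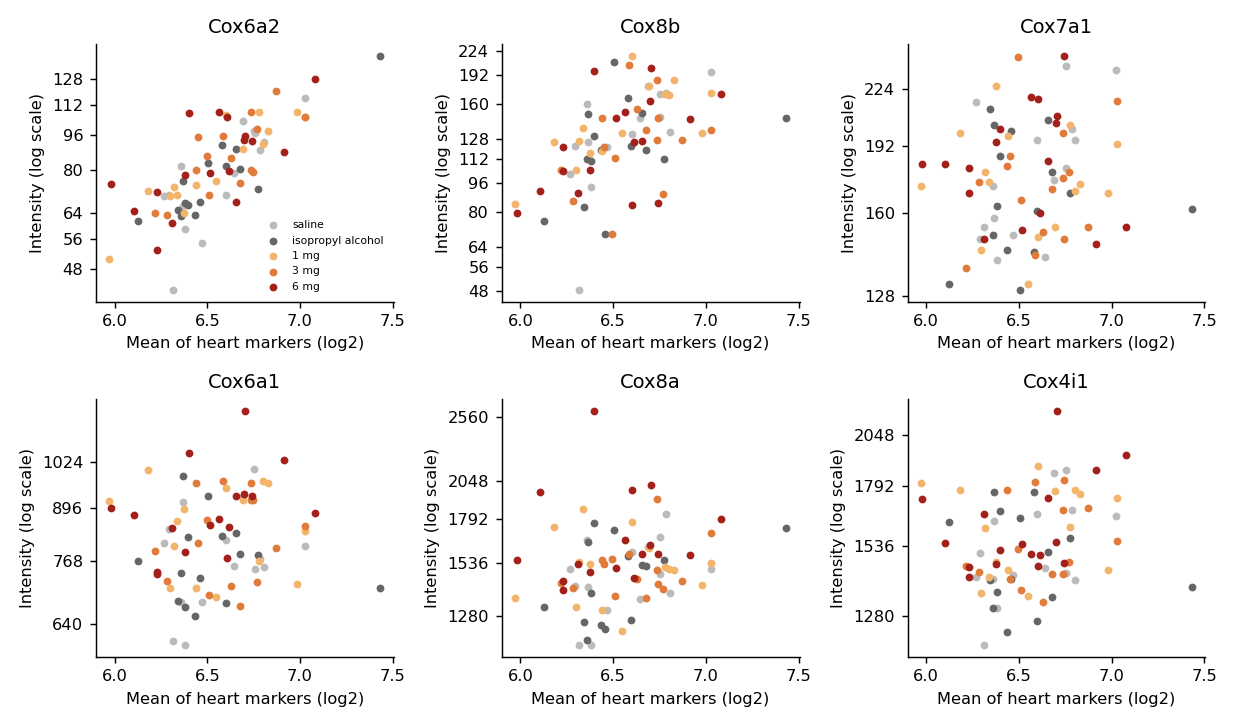
Intensity (y axes, log scale) of muscle forms (Cox6a2, Cox8b, Cox7a1) and forms of most tissues (Cox6a1, Cox8a, Cox4i1) of complex IV subunits against the mean log2 level of heart marker genes (x axes) in 77 animals, coloured by group. Cox6a2 follows the heart markers most closely, with r = 0.76.

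The 16 genes of the ATP synthase gave no call against vehicle, and their medians at 6 mg were 0.14, 0.16, 0.23, 0.12 and 0.16 from 30 min to 24 h. Atp5f1b, the catalytic beta subunit, had 2838, 2040 and 2657 at 6 mg for 3 h, against 2014, 1741 and 2198 with isopropyl alcohol, with overlap (0.33 ± 0.13, adjusted p = 0.0949). Atp5f1d, the delta subunit of the central stalk, had 556, 572, 575 and 620 at 6 mg for 1 h, against 458, 567 and 316 with isopropyl alcohol, with overlap (0.41 ± 0.15, adjusted p = 0.26). Atp5if1, the inhibitor that stops the enzyme from running in reverse, had 257, 269 and 265 at 6 mg for 24 h, against 217, 218 and 172 with isopropyl alcohol. These groups did not overlap, and the difference was 0.38 ± 0.13 (adjusted p = 0.0822). Against 3 mg, with 206, 182 and 159, Atp5if1 rose by 0.53 ± 0.13 (adjusted p = 0.0287), a call kept without 3 mg replicate 1 and lost in the other 5 fits without 1 animal (adjusted p 0.0214 to 0.266). Of its pair of probe sets below the filter, both had differences above 0 at 24 h, 0.38 and 0.70, in a fit without the filter, and one of them passed at 6 h (1.22, adjusted p = 0.00985) at a mean intensity of 6.0, under the offset of 7.

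Between 6 mg and 3 mg, Atp5if1 and Ndufa4l2 were the 2 of 86 members that passed, both at 24 h, where 1.1% of all probe sets passed. None passed at 30 min (0.0% of all), 1 h (0.0%), 3 h (4.54%) or 6 h (4.31%). The members with the smallest p there were Sdhaf4 (0.37 ± 0.16) and Ndufb8 (0.55 ± 0.23) at 30 min, Ndufs4 (0.31 ± 0.13) and Cox4i2 (0.39 ± 0.19) at 1 h, Ndufb7 (0.33 ± 0.13) and Ndufaf5 (0.34 ± 0.14) at 3 h, and Ndufaf4 (0.62 ± 0.21) and Cox7a2l (0.33 ± 0.12) at 6 h. Over dose, the trend passed for 4 members at 6 h (Ndufs4, Ndufaf4, Ndufaf5 and Ndufa3) and 3 at 24 h (Sdhaf1, Ndufa4l2 and Cox4i2). It passed for none at 30 min, 1 h and 3 h, where 0.0%, 0.477% and 12.1% of all probe sets passed. The nearest were Cox7b (0.04 ± 0.02 per mg) and Sdhaf4 (0.07 ± 0.02) at 30 min, Cox6b1 (0.07 ± 0.02) and Ndufc1 (0.07 ± 0.02) at 1 h, and Ndufa13 (0.06 ± 0.02, adjusted p = 0.0546) and Ndufb10 (0.07 ± 0.03) at 3 h. Of 12 fits without 1 animal, the trend was lost in 1 for Ndufs4, 2 for Ndufaf4, 5 for Ndufaf5, 7 for Ndufa3, 3 for Sdhaf1, 7 for Ndufa4l2 and 8 for Cox4i2. These comparisons share animals with each other and with those of 6 mg against vehicle.

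Lower doses left no member past the threshold. At 3 mg against isopropyl alcohol the shares of all probe sets that passed were 0.0% at 30 min, 1 h and 3 h, 1.68% at 6 h and 0.504% at 24 h, and the members had medians of 0.015, 0.09, 0.06, -0.018 and 0.03. The smallest p were those of Ndufaf4 (0.33 ± 0.21) and Ndufb8 (-0.41 ± 0.24) at 30 min, Uqcrq (0.38 ± 0.16) and Ndufc1 (0.35 ± 0.15) at 1 h, Uqcrc1 (0.31 ± 0.17) and Ndufaf3 (-0.24 ± 0.13) at 3 h, Uqcrc2 (-0.25 ± 0.12) and Sdhaf4 (0.31 ± 0.17) at 6 h, and Ndufb3 (-0.32 ± 0.19) and Ndufa11 (0.35 ± 0.22) at 24 h. At 1 mg the shares of all were 0.0%, 0.0%, 0.018%, 0.009% and 0.333% from 30 min to 24 h, and the members' medians 0.003, 0.16, 0.05, 0.075 and 0.08. The smallest p were those of Ndufaf4 (0.38 ± 0.21) and Sdhaf2 (0.29 ± 0.17) at 30 min, Atp5f1d (0.45 ± 0.16) and Ndufb7 (0.31 ± 0.13) at 1 h, Atp5pb (-0.47 ± 0.17) and Cox7b (-0.28 ± 0.12) at 3 h, Sdhaf4 (0.40 ± 0.17) and Sdhaf2 (0.34 ± 0.17) at 6 h, and Ndufa2 (0.33 ± 0.16) and Atp5f1e (0.53 ± 0.29) at 24 h. Adjusted p was 0.4 or above for each of these genes at 1 mg and 0.505 or above at 3 mg.

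The vehicle by itself left no member past the threshold either. Isopropyl alcohol against saline passed for 0.027%, 0.0%, 0.009%, 0.018% and 0.0% of all probe sets from 30 min to 24 h. At 6 h, 10 members had an unadjusted p under 0.05, against 11.5% of all probe sets, and the median was 0.16, whereas it was -0.075, -0.07, -0.012 and -0.09 at 30 min, 1 h, 3 h and 24 h. The smallest p were those of Cox6c-ps1 (0.78 ± 0.27) and Atp5mpl (-0.23 ± 0.14) at 30 min, Sdhaf4 (0.29 ± 0.17) and Ndufb8 (-0.40 ± 0.24) at 1 h, Sdhaf1 (0.33 ± 0.11) and Atp5pb (0.48 ± 0.17) at 3 h, Ndufs3 (0.34 ± 0.12) and Sdhaf1 (0.31 ± 0.11) at 6 h, and Ndufb4 (-0.28 ± 0.13) and Ndufa5 (-0.40 ± 0.22) at 24 h. Adjusted p was 0.232 or above for each of them.

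Whether the 6 mg effect differed between the 5 times was tested with an F-test, which passed for 11.4% of all probe sets and for none of the 86 members. The nearest were Cox4i2 (adjusted p = 0.0502) and Cox7a2l (0.0667), followed by Ndufa3 (0.111), Ndufs4 (0.145), Ndufs8 (0.185), Ndufa5 (0.214), Ndufs7 (0.268) and Atp5f1d (0.276). At an unadjusted p under 0.05 there were 5 members, against 24.9% of all probe sets. A difference between the times at which Ndufaf4, Ndufa5, Cox7a2l, Ndufs4 and Cox4i2 passed was thus not shown.

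Other mitochondrial genes were counted at 6 mg from lists chosen with the members. Of all probe sets, 9.1% fell at 3 h and 11.1% at 6 h, and 2.71% rose at 24 h. Of 19 tested carriers and import factors, 6 rose at 3 h and 3 at 6 h, with medians of 0.13 and 0.18, beside 3.84% and 7.17% of all probe sets. Among these, Hspd1 and Hspe1, the chaperonin and its partner in the matrix, rose at 3 h by 1.07 ± 0.29 and 0.86 ± 0.22 (limma, adjusted p = 0.00784 and 0.0047). The summed level of the 20 carrier and import genes on the array was 10833, 11911 and 16989 at 6 mg for 3 h. With isopropyl alcohol it was between 9013 and 10437, and the highest exposed animal was far above the others. Slc25a3, the phosphate carrier that feeds the ATP synthase, rose by 0.40 ± 0.11 at 3 h and 0.39 ± 0.11 at 6 h (adjusted p = 0.0075 and 0.00636), and Timm9 and Hspa9 rose at 6 h by 0.55 ± 0.16 and 0.54 ± 0.18. Of 13 genes of the tricarboxylic acid cycle, 1 rose and 1 fell at 6 h: Pdha1, of pyruvate dehydrogenase, by 0.58 ± 0.11 and Suclg2, of succinyl-CoA ligase, by -0.67 ± 0.10 (adjusted p = 7.11e-05 and 2.01e-06). Among 15 genes of cytochrome c and of complex III and IV assembly, Cox10, which makes heme for complex IV, fell by 0.59 ± 0.13 at 3 h and by 0.65 ± 0.13 at 6 h (adjusted p = 0.00134 and 0.000206), and Ttc19 rose by 0.31 ± 0.10 at 24 h.

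Of 71 genes of the mitochondrial ribosome, 2 rose and 1 fell at 3 h, and 4 rose and 1 fell at 6 h. Of all probe sets, 3.84% rose and 9.1% fell at 3 h, and 7.17% rose and 11.1% fell at 6 h. The ribosome genes that passed included Mrpl46 (0.43 ± 0.12) at 3 h and Mrpl53 (0.37 ± 0.12) at 6 h. None of 5 tested regulators (Esrra had 0.58 ± 0.23 at 24 h, adjusted p = 0.135) and none of 3 uncoupling proteins passed at any time. For comparison, 41 genes of the cytosolic ribosome had medians of 0.30 at 3 h and 0.27 at 6 h, above those of the respiratory chain, and -0.01 at 24 h. Of these genes 1, 3 and 1 passed the threshold, beside 12.9%, 18.2% and 6.73% of all probe sets. Of 7 lung epithelial genes, Aqp5 fell at 24 h by 0.93 ± 0.19. Of 3 macrophage genes, Csf1r fell at 6 h by 0.48 ± 0.16, and of 3 neutrophil genes, Fcnb fell at 24 h by 1.88 ± 0.54. No other gene of these lists passed. At 1 h and 3 h, S100a9 (neutrophil) lay above vehicle by 0.99 ± 0.50 and 1.09 ± 0.53. Cd68 (macrophage) lay above it by 0.36 ± 0.16 and 0.30 ± 0.17. Of all probe sets, 11.1% fell at 6 h and 4.02% at 24 h. Both red blood cell genes were without a call, with a median of 1.45 at 3 h and summed levels between 3541 and 8995 at 6 mg and between 556 and 6830 with isopropyl alcohol. The part of these cells in the member values was not tested.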

How the data were processed

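Values were the intensities in the deposited series table, from 2 RAE230A chips per animal, on a linear scale with a 2% trimmed mean of 150 on every array; the program that summarised the probes is not given in the sources used here. From these, 57 control probe sets were removed, an offset of 7 (the 10th percentile was 7.1) was added, log2 was taken and chips A and B were averaged, so that 77 animals were the replicates. Differences are on this log2(value + 7) scale, which understates those of dim genes. The lowest 30% of probe sets by mean were left out. A mean for each of 25 groups was fitted with limma 3.58.1 in R 4.3.3 (statmod 1.5.0; residual degrees of freedom 52, prior 4.6), and p-values were two-sided and adjusted (Benjamini-Hochberg) over 11106 probe sets per comparison.

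Genes came from the series' probe annotation (12783 probe sets with 1 symbol, 312 with several, 2771 with none), and 12748 had their gene ID in RefSeq (GRCr8). The brightest member probe set stood for a gene. Members and lists were chosen with earlier results of these data known. Named were, at 6 mg at each time, up to 8 rises and 8 falls past 0.05 or else the 3 smallest p, values in every animal for the 4 smallest adjusted p, up to 4 passing genes or else the 2 smallest p in other comparisons, 8 for the difference between times, and the paralogues and complex II subunits. Promoters and correlations used scipy 1.17.1 and pandas 2.3.3. The fit was tested on simulated data. The number of arrays limits the precision. Alternatives were the filter, offset, normalization, single chips, all arrays, array weights, scan days, RNA integrity, heart marker level, single times and each animal left out.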

Additional observations from a re-analysis of the deposited data

Results flagged for a closer look

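Of 40 values tested in the groups of 4 animals, 4 stood apart from the other animals of their group on the log2 or the intensity scale; chance flags about 1 in 20. The first 3 were in replicate 2 at 6 mg for 30 min. Sdhaf4 was 176 there and between 101 and 108 in the other 3 animals. Cox7b was 1203 there and between 806 and 812 in the others. Sdhd was 774 there and between 557 and 574 in the others. The animal also had the highest respiratory chain score of its group, 0.22. Cox8a was 2612 in replicate 2 at 6 mg for 1 h and between 1489 and 1637 in the other 3 animals, which passed the criterion of 0.829 on the intensity scale (0.869) and not on the log2 scale (0.828). None of these genes passed the test at its time, and the 30 min differences without the animal were 0.32 for Sdhaf4 and 0.14 for Cox7b.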

How the results depend on the processing

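No called gene reversed under the alternatives run, but the counts of changed genes were not stable. In the 5 comparisons with a count above 0, 40 of 80 fits moved it by over 1.5 times, as did 29 of 42 fits without 1 animal. In the others, 24 of 415 and 10 of 174 fits moved the count off 0. Without 1 animal the changed genes at 6 mg numbered 0 to 8 at 3 h, 0 to 2 at 6 h and 0 to 1 at 24 h, those against 3 mg 0 to 1 at 6 h and 24 h, those of the dose trend 0 to 9 at 3 h, 1 to 5 at 6 h and 0 to 3 at 24 h, and those of isopropyl alcohol against saline at 6 h 0 to 1. The 8 at 3 h came without 6 mg replicate 2, where replicates 1 of 6 mg and 3 of vehicle gave 2 and 3. The median at 6 mg at 24 h was then 0.087 to 0.179. Chips paired as a replicate block with all arrays and the animal as a random block (correlation 0.524) gave 2, 7, 7 and 2 changed genes at 6 mg at 1 h, 3 h, 6 h and 24 h, 2 against 3 mg at 6 h, 2 and 6 in the trend at 1 h and 3 h, and 3 between times. Array weights gave 15 and 3 at 6 mg at 6 h and 24 h, 9 and 5 against 3 mg, 13 in the trend at 6 h, 3 between times, and 1 and 5 for isopropyl alcohol against saline at 3 h and 6 h. The shares of all probe sets that passed in the alternative fits are not given here.

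At 6 h, the count of 4 at 6 mg became 1 with scan days as a block or chip B alone (in both Ndufs1, which is none of the 4), and 1 with no filter or without scan days 13 and 14 (in both Ndufaf4), and 2 with quantile normalization (both higher) or the groups of that time alone; centring on the median gave 4 higher and 0 lower, against 3 and 1. The 1 call at 24 h, Cox4i2, became 0 with scan days as a block, chip A alone, no filter, centring, that time alone and without days 13 and 14. With the GAPDH ratio the call of Cox4i2 was lost as well, and Sdhaf1 passed instead (0.35, adjusted p = 0.0381). Against 3 mg at 24 h, the 2 calls became 1 with no filter, offsets 16 and 32, both normalizations, chip A, scan days, the GAPDH ratio and the heart level, and 0 with chip B or that time alone. The trend gave at 3 h 1 with the GAPDH ratio, centring, offset 32, the lowest 50% left out and without days 13 and 14, and 2 with chip A; at 6 h 2 with scan days or that time alone and 1 with chip B; and at 24 h 0 with chip B and 1 with centring, chip A, heart level, no filter, offset 32, quantile normalization and without days 13 and 14. Between times there were 3 with the GAPDH ratio, and 1 with chip A, heart level, the lowest 50% left out, quantile normalization and without days 13 and 14. Chip A gave 1 at 6 mg at 3 h and 1 against 3 mg at 6 h.

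The median at 6 mg was 0.171 at 6 h and 0.237 at 24 h with centring, which lifts all genes, 0.091 at 24 h with the GAPDH ratio and 0.087 without days 13 and 14. Against 3 mg it was 0.187 at 6 h and 0.171 at 24 h with centring, 0.062 at 6 h with scan days, and at 24 h 0.016 with the GAPDH ratio, 0.053 with chip B and 0.154 with the heart level; the trend at 6 h was 0.021 with centring. Against vehicle within scan days, the median at 6 mg was 0.036 and 0.153 at 3 h, -0.045 and 0.249 at 30 min and 0.149 at 24 h. The cause of each was not tested.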
